A study of Mus musculus with 6 samples.

Results

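The genes described here are *Vegfa*, *Vegfb*, *Vegfc*, *Flt1*, *Kdr*, *Flt4*, *Nrp1*, *Nrp2*, *Pecam1* and *Cdh5*, which encode ligands, receptors and coreceptors of vascular endothelial growth factor (VEGF) and a pair of endothelial junction proteins. They were chosen by name, as the 10 rows of the deposited normalized table with these symbols out of 16247 genes, and were joined by gene identifier to the raw counts of 51912 genes. RNA from the soleus, a slow calf muscle, was compared between 3 *Mustn1* KO-first heterozygous (HET) and 3 wild-type (WT) littermate mice of strain C57BL6/N at 8 weeks of age, with 1 poly-A library each. The KO-first allele (tm1a) carries a lacZ and neomycin trap that is designed to cut the transcript short after its first exon, in every cell of the body, and HET mice keep 1 intact allele. The labels number the libraries 1 to 3 in each genotype without naming the animals, so they are called mice here and the p-values measure the spread between these samples. The libraries held between 26790075 and 50368796 reads on genes. Against the male sex given in the labels, *Xist* had 3858 to 9154 reads in every library, and *Kdm5d*, *Eif2s3y*, *Uty* and *Ddx3y* of the Y chromosome summed to at most 12. *Myh7*, the myosin of slow fibers, was at 13642 to 14766 normalized counts (CPM, reads scaled by library size with TMM factors) in the 6 mice.

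VEGF-A is secreted by muscle fibers and other cells and acts on the VEGFR2 receptor (*Kdr*) of endothelial cells, where it drives the growth and permeability of capillaries. VEGFR1 (*Flt1*) binds VEGF-A and VEGF-B and, as a membrane or soluble protein, holds ligand away from VEGFR2. VEGF-C acts mainly on VEGFR3 (*Flt4*) of lymphatic vessels, the neuropilins (*Nrp1*, *Nrp2*) are coreceptors that also bind class 3 semaphorins, and *Pecam1* and *Cdh5* (VE-cadherin) hold endothelial cells together and join VEGFR2 in sensing flow.

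*Mustn1*, the targeted gene, was at 12.6, 16.8 and 13.1 CPM in HET mice 1 to 3 and at 23.1, 29.0 and 30.5 CPM in WT mice 1 to 3. All HET mice lay below all WT mice, with a log2 fold change of −0.96 (SE 0.15, 95% interval −1.29 to −0.64, adjusted p = 0.0452 by edgeR's quasi-likelihood test over all genes). It no longer passed without HET 1 (−0.89), HET 3 (−0.91), WT 1 (−1.07) or WT 2 (−0.93). In the same fit of all mice, 0 of the 10 VEGF and junction genes passed an adjusted p of 0.05, where 22 of 14696 genes did (0.15%), 21 of them higher (0.143%) and 1 lower in HET mice (0.0068%). None of the 10 reached an unadjusted p below 0.05, against 7.76% of all genes, and the lowest of their adjusted p-values was 0.807. DESeq2, which called 1.48% of genes, and limma-voom, which called 0.0204%, also called 0 of the 10. With no filter on low counts (1.39% called) and with the replicate number as a block (0.789% called) the count was again 0.

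The 10 log2 fold changes lay between −0.18 and 0.14, 5 above and 5 below 0, with a median of 0.01 beside a median of −0.02 over all genes tested. All 10 were within 0.2 of 0, as were 69.3% of all genes, and 45.6% of all genes were above 0. For 0 of the 10 genes did the CPM of the genotypes separate without overlap, where 13.6% of all genes did, 7.55% with HET mice higher and 6.02% with HET mice lower. Each of the 10 intervals lay within 1 of 0 on the log2 scale. These are RNA levels of whole muscle, in which fewer cells of a type and less RNA per cell cannot be told apart.

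**Figure D1:**
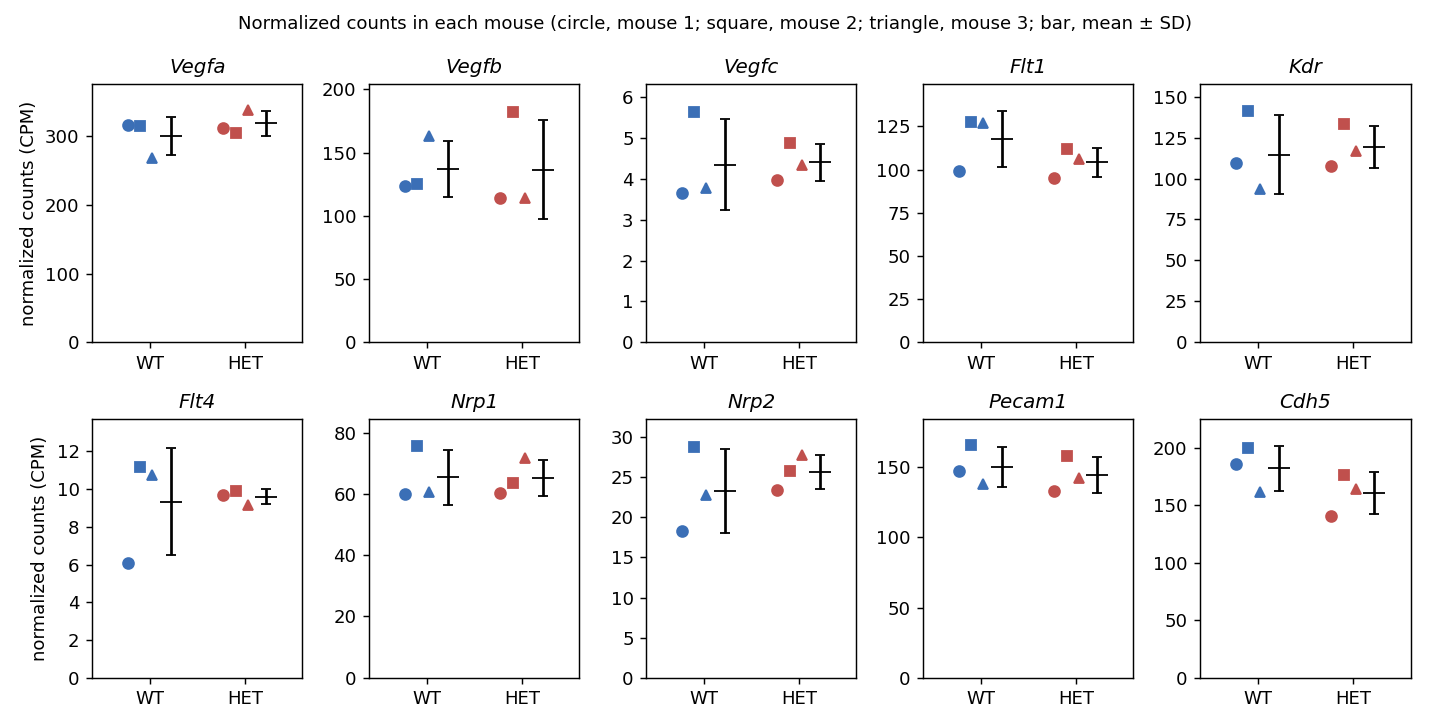
Normalized counts (CPM, linear axes from 0) of the 10 VEGF and junction genes in each WT and HET mouse, with the mean and SD of 3 mice beside the points. The genotypes overlap in all 10 panels, and WT 2, the square among the WT mice, is the highest of the 6 mice in 8 of them.

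Of the ligands, *Vegfa* (ENSMUSG00000023951) lies on the minus strand of chromosome 17 of GRCm38.p6, from 46016993 to 46032369, and was counted by 8205 to 14888 reads per library. It was at 312, 306 and 339 CPM in HET mice 1 to 3 and at 317, 316 and 269 CPM in WT mice 1 to 3. HET 3 was the highest and WT 3 the lowest, and the other 4 mice lay close together. The means of 319 ± 17.8 CPM in HET and 301 ± 27.4 CPM in WT mice (SD, n = 3 each) gave a log2 fold change of 0.09 (SE 0.09, adjusted p = 0.912), with a 95% interval of −8.14% to 22.7% for the change in HET mice. The separation of the genotypes depended on the scale. Per exon length, as TPM, which also scales to a common total in each library, the HET mice, at 207 to 242, all lay above the WT mice, at 175 to 199, whereas they overlapped in CPM and in the deposited normalized counts. Going from CPM to TPM raised the ratio of HET to WT means by 8.50% to 9.40% in the 10 genes and by 9.12% in the median gene. In TPM, 16.3% of all genes had HET mice higher without overlap and 1.13% had them lower.

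*Vegfb* (ENSMUSG00000024962, chromosome 19, minus strand, 6982473 to 6987651) encodes the ligand of VEGFR1 that is abundant in oxidative muscle and heart. It was at 114, 181.7 and 114 CPM in HET mice and at 123, 125 and 163 CPM in WT mice. A single mouse of each genotype, HET 2 and WT 3, stood above the rest, and the other 4 mice lay between 114 and 125 CPM. Its log2 fold change was −0.01 (SE 0.20, adjusted p = 0.998), with an interval of −27.5% to 36.7%.

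*Vegfc* (ENSMUSG00000031520, chromosome 8, plus strand, 54077606 to 54187096), the lymphatic ligand, had between 109 and 191 reads per library. Its level was 3.98, 4.88 and 4.35 CPM in HET mice and 3.65, 5.64 and 3.77 CPM in WT mice. WT mice held both the highest and the lowest value. The log2 fold change was 0.02 (SE 0.20, adjusted p = 0.991), with an interval of −25.5% to 38.3%.

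Of the receptors, *Flt1* (ENSMUSG00000029648, chromosome 5, minus strand, 147561604 to 147726011), the decoy receptor, was at 94.96, 112 and 106 CPM in HET mice and at 98.9, 127.3 and 127.2 CPM in WT mice. A pair of WT mice lay above all HET mice and WT 1 lay among the HET mice. The mean was 104 ± 8.52 CPM in HET and 118 ± 16.4 CPM in WT mice, which gave −0.18 on the log2 scale (SE 0.11, adjusted p = 0.824). The interval ran from −25.7% to 5.35%. The counts are per gene and do not separate the membrane from the soluble form.

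*Kdr* (ENSMUSG00000062960, chromosome 5, minus strand, 75932827 to 75978458), the main signaling receptor for VEGF-A, was at 108, 133 and 117 CPM in HET mice and at 109.6, 141 and 93.4 CPM in WT mice. The WT mice held the highest and the lowest value, and the HET mice lay between them. The log2 fold change was 0.06 (SE 0.15, adjusted p = 0.969), with an interval of −16.9% to 30.1%.

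*Flt4* (ENSMUSG00000020357, chromosome 11, plus strand, 49609263 to 49652739), the receptor of lymphatic endothelium, was at 9.70, 9.91 and 9.14 CPM in HET mice and at 6.09, 11.2 and 10.8 CPM in WT mice. The HET mice were close together, with a coefficient of variation of 4.17% against 30.2% in WT mice, where WT 1 was far below the others. The log2 fold change was 0.03 (SE 0.20, adjusted p = 0.986), with an interval of −25.4% to 40.3%, and without WT 1 it was −0.20.

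**Figure D2:**
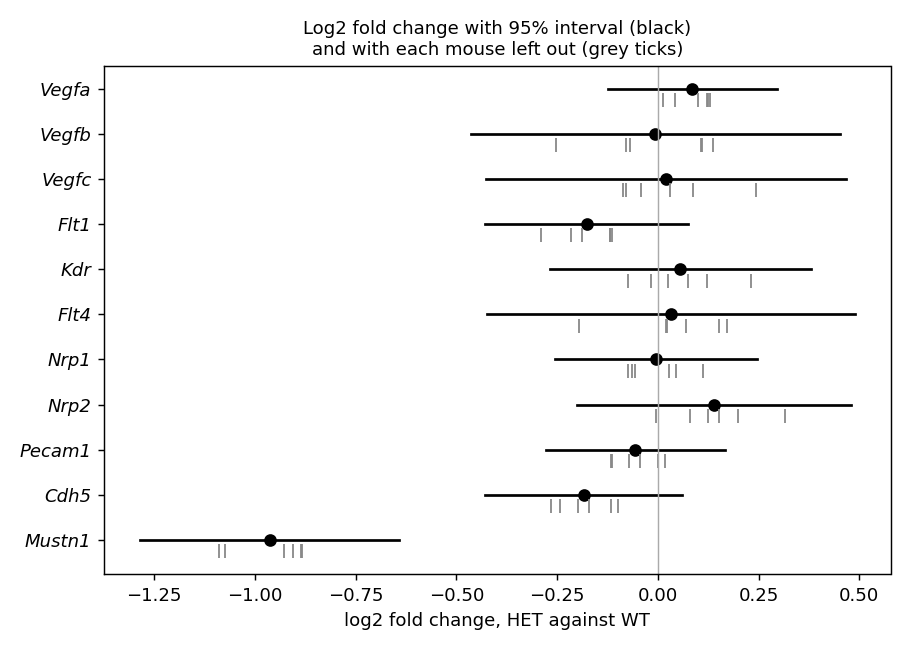
Log2 fold change of HET against WT (horizontal axis) of the 10 genes and *Mustn1*, with the 95% interval as a black line and the value with each mouse left out as gray ticks. The intervals of the 10 genes cross 0 and that of *Mustn1*, from −1.29 to −0.64, does not.

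The sequences before *Flt1* and *Kdr* are shown because these receptors share VEGF-A as a ligand and stood at nearly the same ratio to each other in 5 of the 6 mice. RefSeq start sites of GRCm38.p6 matched 8 of the 10 genes. The 250 bases before the start of *Flt1* are at chr5:147726012-147726261 and those of *Kdr* at chr5:75978456-75978705, both on the minus strand and written 5′ to 3′. Capitals mark GGAAG, 1 form of the core of ETS sites, on either strand (CTTCC on the printed one where the core is on the other). Other forms of the core were not searched for.
*Flt1*: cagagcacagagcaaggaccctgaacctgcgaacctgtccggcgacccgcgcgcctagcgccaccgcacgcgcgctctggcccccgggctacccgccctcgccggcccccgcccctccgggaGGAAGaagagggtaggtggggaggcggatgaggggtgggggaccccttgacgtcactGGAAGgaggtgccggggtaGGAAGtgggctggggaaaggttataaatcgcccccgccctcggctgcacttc
*Kdr*: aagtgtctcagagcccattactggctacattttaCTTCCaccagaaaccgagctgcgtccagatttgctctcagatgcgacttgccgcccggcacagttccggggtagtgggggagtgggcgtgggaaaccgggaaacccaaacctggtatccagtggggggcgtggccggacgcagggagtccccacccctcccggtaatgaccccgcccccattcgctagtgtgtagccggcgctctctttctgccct
The *Flt1* window held 3 ETS cores of this form and the *Kdr* window 1, and 64.1% of the 32851 windows of this length before all RefSeq start sites held at least 1. Of the core letters of hypoxia response elements on either strand, ACGTG was in neither window (16.6% of all windows), and GCGTG was found once in *Flt1* and at 2 positions in *Kdr* (28.2% of all windows). These are matches of letters and not measured binding.

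The neuropilins also overlapped. *Nrp1* (ENSMUSG00000025810, chromosome 8, plus strand, 128358604 to 128503363), the coreceptor of VEGFR2, was at 60.4, 63.4 and 71.5 CPM in HET mice and at 59.8, 75.8 and 60.6 CPM in WT mice. Apart from HET 3 and WT 2, which were higher, the mice lay between 59.8 and 63.4 CPM. The log2 fold change was −0.00 (SE 0.11, adjusted p = 0.997), with an interval of −16.2% to 18.6%.

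*Nrp2* (ENSMUSG00000025969, chromosome 1, plus strand, 62703285 to 62818695), the coreceptor of VEGFR3 and of veins and lymphatic vessels, was at 23.5, 25.7 and 27.8 CPM in HET mice and at 18.3, 28.8 and 22.8 CPM in WT mice. The HET mice lay between WT 2 above and the other WT mice below. At 0.14 (SE 0.15, adjusted p = 0.912), its log2 fold change was the highest of the 10, with an interval of −12.9% to 39.3%. Without WT 1 it was −0.01 and without WT 2 it was 0.31.

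Of the junction genes, *Cdh5* (ENSMUSG00000031871, chromosome 8, plus strand, 104101625 to 104144511) was at 141, 176 and 164 CPM in HET mice and at 186, 199.8 and 161 CPM in WT mice. WT 1 and WT 2 lay above all HET mice, and WT 3 lay below HET 2 and HET 3. The means were 160 ± 18.3 CPM in HET and 182 ± 19.4 CPM in WT mice, and the log2 fold change, −0.18 (SE 0.11, adjusted p = 0.807), was the lowest of the 10. Its interval ran from −25.7% to 4.27%.

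*Pecam1* (ENSMUSG00000020717, chromosome 11, minus strand, 106654217 to 106750628), which encodes CD31, was at 133, 158 and 143 CPM in HET mice and at 147, 166 and 138 CPM in WT mice. The genotypes were interleaved. The log2 fold change was −0.06 (SE 0.10, adjusted p = 0.951), with an interval of −17.55% to 12.2%.

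The same mice were often at the ends of the range. WT 2 was the highest of the 6 mice in 8 of the 10 genes, all but *Vegfa* and *Vegfb*, where 14.4% of all genes were highest in that mouse. HET 1 was the lowest in 4 of them (*Vegfb*, *Flt1*, *Pecam1* and *Cdh5*), against 11.1% of all genes. WT 2 was also the highest in 7 of 15 other endothelial markers and in 7 of 16 junction partner genes. These lists share genes, and a gene of both is in each count. Across the 10 genes the highest mouse exceeded the lowest by between 1.25-fold (*Pecam1*) and 1.84-fold (*Flt4*).

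**Figure D3:**
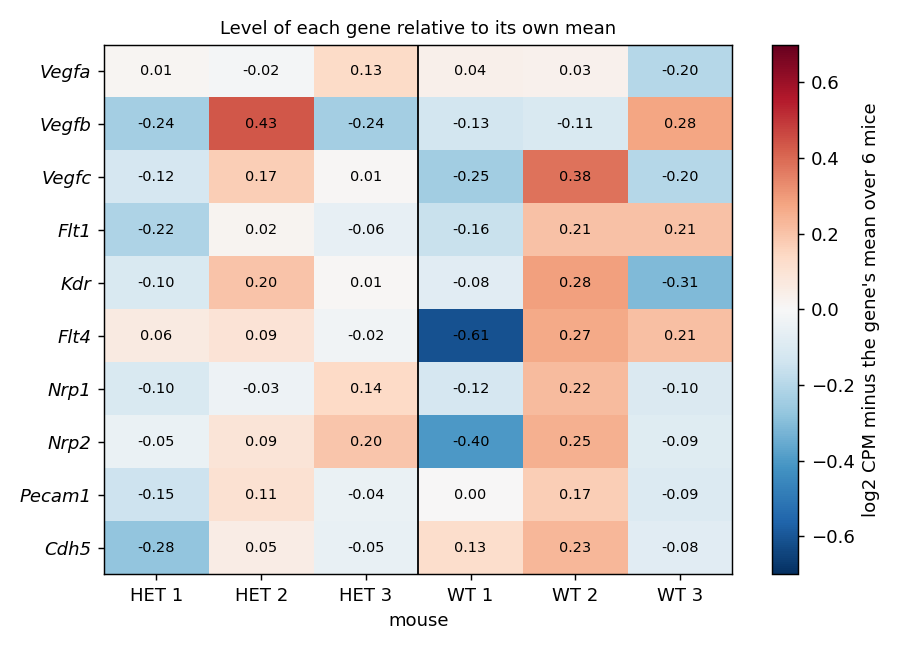
Level of each of the 10 genes in each mouse as log2 CPM minus the gene's mean over the 6 mice, with red above and blue below the mean and the value in each cell. The WT 2 column is above 0 in every gene but *Vegfb* (−0.11) and reaches 0.38 in *Vegfc*, and the lowest cell is *Flt4* in WT 1 at −0.61.

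By the Pearson correlation of log2 CPM over the 6 mice, the genes with the profile most like *Vegfa* were *Hyls1* (r = 0.99), *Cdkn2aip* (r = 0.99) and *Knl1* (r = 0.99), and 138 genes had r above 0.9. *Hyls1*, at 0.97 to 2.19 CPM, and *Knl1*, at 0.061 to 0.71 CPM, had few reads. For *Kdr* they were *Prelid3b* (r = 0.99), *Gm26582* (r = 0.99) and *Ppp1r16b* (r = 0.99), with 79 genes above 0.9. With 6 mice and 14696 genes, which share libraries, these are descriptions only.

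Compared per exon length, *Vegfb* had the highest level of the 10 genes, at 242 ± 51.7 TPM (SD over 6 mice), and *Vegfa* followed at 206 ± 22.2 TPM. This pair was not separated, since *Vegfb* was the higher in 4 of 6 mice and their ranges overlapped. *Cdh5* was at 115 ± 11.1 TPM, *Pecam1* at 67.1 ± 5.45 TPM and *Kdr* at 36.8 ± 5.68 TPM, each above the next in every mouse with no overlap of ranges. *Flt1* at 23.3 ± 2.71 TPM and *Nrp1* at 18.9 ± 2.31 TPM overlapped in range, although *Flt1* was higher in 6 of 6 mice. *Nrp2* at 5.89 ± 1.07 TPM and *Vegfc* at 5.08 ± 0.887 TPM overlapped as well, with *Nrp2* higher in 6 of 6 mice, and *Flt4* was the lowest at 3.27 ± 0.648 TPM. The order of the 10 genes by mean TPM was the same in both genotypes.

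**Figure D4:**
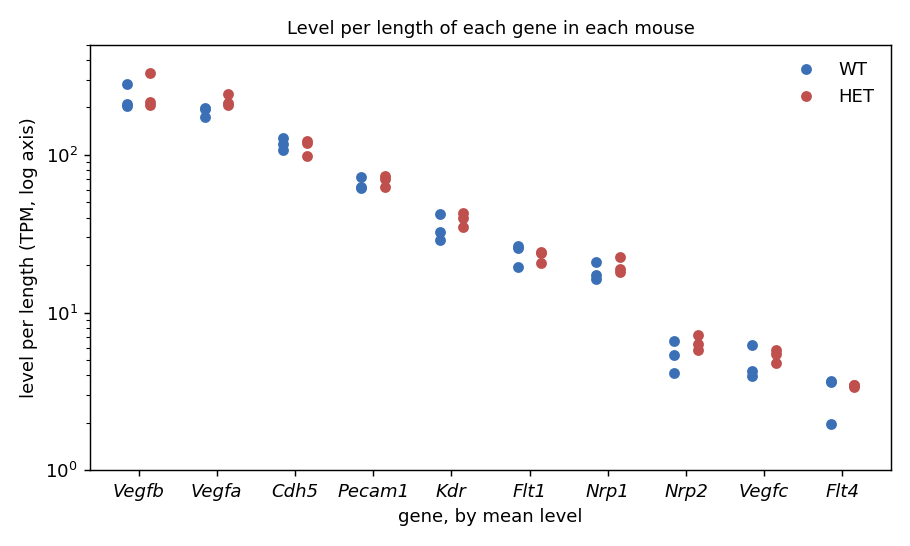
Level per exon length (TPM, log axis) of the 10 genes in each WT and HET mouse, ordered by the mean of the 6 mice. The means run from 242 TPM for *Vegfb* to 3.27 TPM for *Flt4*, and at each gene the points of both genotypes lie in the same part of the axis.

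In TPM, the decoy receptor *Flt1* was below *Kdr* in all 6 mice, with a ratio of 0.561 to 0.608 in 5 mice and 0.911 in WT 3. This order rests on the exon length counted for each gene, 13504 bases for *Flt1* and 9030 for *Kdr*. In CPM the ratio was 0.839 to 1.36, with WT 3 the highest. Also in TPM, *Nrp1* exceeded *Nrp2* by between 2.98-fold and 3.95-fold, and *Vegfa* exceeded *Vegfc* by between 32.01-fold and 49.7-fold. The ratio of *Flt1* to *Kdr* placed WT 3 apart, while the other WT mice were inside the HET range of that ratio. WT 3 also stood apart over the most variable genes of the whole data, at −19.83 on principal component 2 against 1.59 to 6.62 in the other mice.

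On the log2 CPM scale, 11 ratios were compared between genotypes with a two-sided exact permutation test, for which 3 against 3 mice allow no p below 0.1. The ratios to endothelial RNA were also compared with a second reference, outside the 11. Relative to the mean of *Pecam1* and *Cdh5*, as a measure of endothelial RNA, *Nrp2* was higher in HET mice by 0.28 (exact p = 0.2) and *Kdr* by 0.19 (exact p = 0.2), with overlap in both. *Flt4* differed by 0.21 (exact p = 0.9), *Nrp1* by 0.12 (exact p = 0.4) and *Flt1* by −0.05 (exact p = 0.7). Another reference shifts all of these genes alike in each mouse, since only the subtracted mean changes. Relative to 15 other endothelial markers, the log2 ratio of *Flt1* was 1.77, 1.73 and 1.83 in HET mice and 1.85, 1.89 and 2.16 in WT mice. The HET mice then all lay below the WT mice, by −0.19 (exact p = 0.1, the smallest possible, and not adjusted for the ratios compared). With the same reference the differences were 0.14 for *Nrp2* (exact p = 0.4), 0.07 for *Flt4* (exact p = 0.9), 0.05 for *Kdr* (exact p = 1.0) and −0.02 for *Nrp1* (exact p = 0.9), with overlap in each.

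Within the set, the log2 ratio of *Flt1* to *Kdr* was −0.19 ± 0.06 in HET and 0.05 ± 0.34 in WT mice (SD, n = 3 each), a difference of −0.24 (exact p = 0.3). It was −0.04 without WT 3, the mouse at 0.45. The ratio of *Pecam1* to *Cdh5* was the 1 of the 11 whose genotypes did not overlap, where 13.6% of all single genes did not overlap in CPM. It was −0.08, −0.16 and −0.21 in HET mice and −0.34, −0.27 and −0.23 in WT mice, so that each HET mouse had more *Pecam1* for its *Cdh5* than each WT mouse. The difference was 0.13 (exact p = 0.1, the smallest possible, and 0.733 adjusted over the 11). The remaining ratios were *Vegfb* to *Vegfa* (difference −0.12, exact p = 0.5), *Nrp1* to *Kdr* (−0.07, exact p = 0.6), *Vegfc* to *Vegfa* (−0.05, exact p = 0.8) and *Flt4* to *Kdr* (0.02, exact p = 1.0).

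The wider pathway was read from 6 lists of genes in the same fit, and 0 genes of these lists passed by edgeR, DESeq2 or limma-voom. Of 12 other ligands and receptors of vessel growth, 8 were above 0, with a median log2 fold change of 0.11, and none had an unadjusted p below 0.05. *Angptl4*, a lipase inhibitor induced by fasting and hypoxia, was the highest at 1.46 (SE 1.38, adjusted p = 0.899), with 54.2 CPM in HET 2 and 2.64 to 15.6 CPM in the other 5 mice. *Angpt1*, the ligand of the Tie2 receptor, was the lowest at −0.16 (SE 0.18, adjusted p = 0.916). Of 10 regulators of *Vegfa* by hypoxia and PGC-1, 5 were above 0, none had an unadjusted p below 0.05 and the median was 0.00. They ran from *Ppargc1a*, which encodes PGC-1α, at −0.17 (SE 0.11, adjusted p = 0.833) to *Egln3*, an oxygen-sensing prolyl hydroxylase, at 0.14 (SE 0.13, adjusted p = 0.891).

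Semaphorins are the other ligands of the neuropilins, and plexins are their receptors. Of 12 such genes, 8 were above 0 with a median of 0.07, and 2 had an unadjusted p below 0.05. *Sema3a*, the repulsive ligand of *Nrp1*, was at 2.27, 1.75 and 3.62 CPM in HET mice and at 0.90, 1.67 and 1.18 CPM in WT mice. The genotypes did not overlap, with HET mice higher, and the log2 fold change was 1.05 (SE 0.32, adjusted p = 0.327). *Sema3e*, the ligand of plexin D1 and named after its values were seen, was at 2.59, 2.20 and 2.44 CPM in HET mice and at 1.14, 1.38 and 1.09 CPM in WT mice. Here too all HET mice were higher, with a log2 fold change of 1.01 (SE 0.22, adjusted p = 0.131 by edgeR and 0.0552 by DESeq2). Both have few reads, between 27 and 159 per library for *Sema3a* and between 34 and 107 for *Sema3e*, and 2 genes of this list were called with no filter on low counts. *Plxna2* was the lowest at −0.23 (SE 0.18, adjusted p = 0.860).

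Among 19 genes of VEGFR2 signaling, 9 were above 0, with a median of −0.00 and 1 unadjusted p below 0.05. That gene was *Src*, a kinase downstream of VEGFR2, at 3.71 to 4.75 CPM in HET mice and 2.34 to 3.02 CPM in WT mice. Its genotypes did not overlap, with a log2 fold change of 0.62 (SE 0.19, adjusted p = 0.308). *Pik3r1*, the regulatory subunit of PI3 kinase, was the lowest at −0.23 (SE 0.12, adjusted p = 0.760).

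Of 11 Notch and tip cell genes, 8 were above 0, with a median of 0.04. *Dll4*, the Notch ligand that VEGF induces in tip cells, was the highest at 0.17 (SE 0.18, adjusted p = 0.899). *Hey1*, a target of Notch, was the lowest and the only 1 of the list with an unadjusted p below 0.05, at 6.81 to 7.61 CPM in HET mice and 8.51 to 9.99 CPM in WT mice. On the log2 scale the change was −0.35 (SE 0.13, adjusted p = 0.499).

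Of 16 partners of endothelial junctions, 6 were above 0, with a median of −0.03. *Cldn5*, a tight junction protein, was the highest at 0.22 (SE 0.25, adjusted p = 0.918). *Ptprb*, the phosphatase VE-PTP that binds VE-cadherin, was the lowest and the only 1 with an unadjusted p below 0.05. It was at 153, 150.2 and 179 CPM in HET mice and at 177, 209 and 202 CPM in WT mice. HET 3 lay just above WT 1 and the other HET mice below all WT mice, with a log2 fold change of −0.29 (SE 0.10, adjusted p = 0.421).

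**Figure D5:**
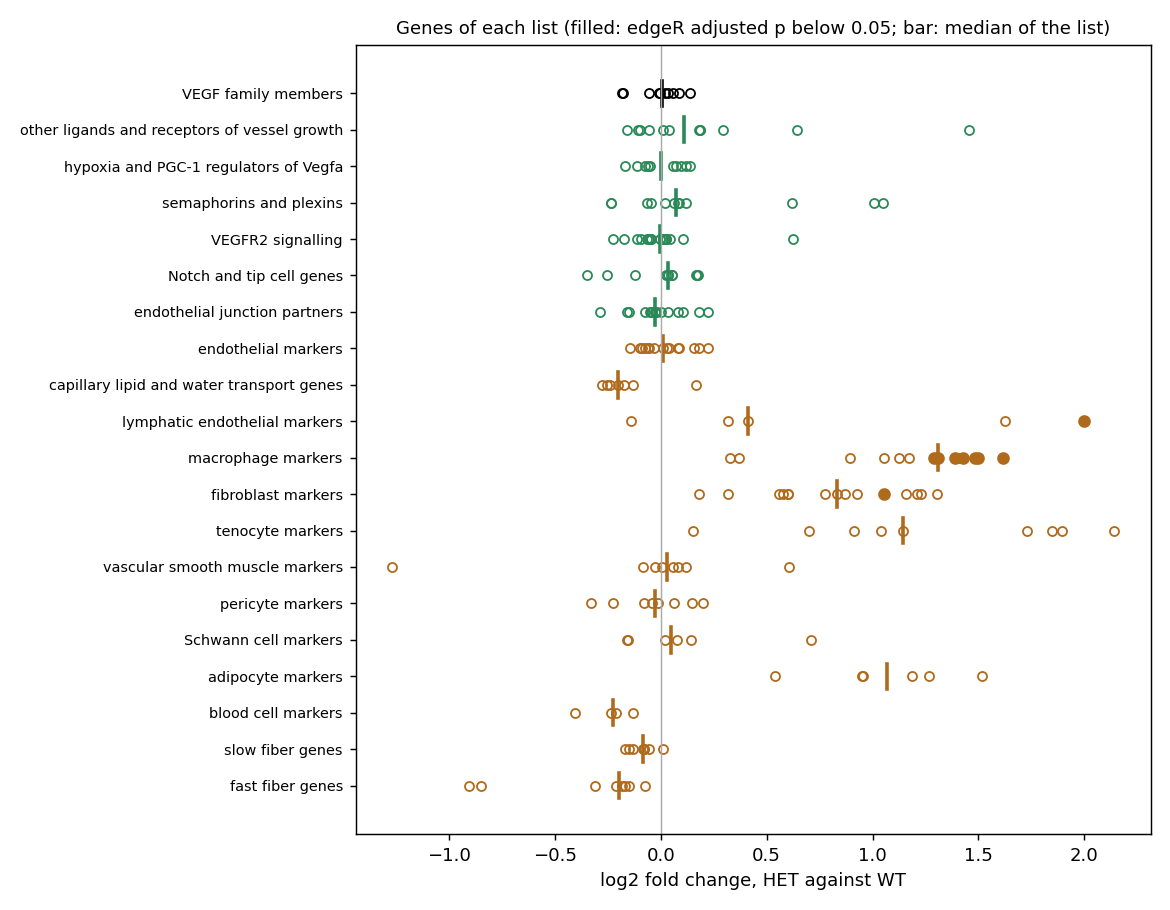
Log2 fold change of HET against WT (horizontal axis) of each gene of the 10 VEGF and junction genes (black), the 6 pathway lists (green) and 13 lists of cell type markers and fiber genes (brown), with the median of each list as a bar and genes at an edgeR adjusted p below 0.05 filled. The median of the 10 genes is 0.01, that of the endothelial markers is 0.01 and that of the macrophage markers is 1.31.

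Other endothelial markers overlapped between the genotypes. Of 15 endothelial markers other than the 10 genes, 8 were above 0, from *Sox17* at −0.15 (SE 0.17) to *Cldn5*, with a median of 0.01 and no unadjusted p below 0.05. Their summed level was 514 to 631 CPM in HET mice and 518 to 661 CPM in WT mice. Of the genes of capillary lipid and water transport, 6 of 7 were below 0, with a median of −0.20. Their sum was 4024 to 4458 CPM in HET mice and 4654 to 5374 CPM in WT mice, without overlap. *Lpl* alone was 62.1% to 68.2% of it, and the other 6 genes, a split chosen after the values were seen, overlapped at 1426 to 1688 CPM in HET and 1559 to 1956 CPM in WT mice. *Lpl*, the lipoprotein lipase that muscle fibers and fat cells make and capillaries display, was at −0.27 (SE 0.09, adjusted p = 0.382), and *Rgcc* was the highest at 0.17 (SE 0.19). Pericyte markers also summed lower without overlap, to 986 to 1152 CPM in HET mice and 1172 to 1290 CPM in WT mice, with 5 of 8 below 0 and a median of −0.03. *Rgs5* at −0.33 (SE 0.11, adjusted p = 0.385) was the lowest of them and *Pdgfrb* at 0.20 (SE 0.13) the highest. *Rgs5* was 50.1% to 61.4% of the sum, and the other 7 markers overlapped, at 455 to 509.7 CPM in HET and 453 to 529 CPM in WT mice. No gene of the capillary, pericyte or endothelial marker lists was called by edgeR, DESeq2 or limma-voom, and 1 capillary and 1 pericyte gene had an unadjusted p below 0.05.

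Lymphatic markers, the setting of *Flt4*, *Vegfc* and *Nrp2*, were uneven. Of 5 tested, 4 were above 0, with a median of 0.41. *Ccl21a* was at 0 reads, in counts that leave out reads mapping to several places. *Mmrn1*, an extracellular protein of lymphatic vessels and platelets, was at 4.38, 5.03 and 3.28 CPM in HET mice and at 0.60, 0.96 and 1.499 CPM in WT mice. It was higher in HET mice, with a log2 fold change of 1.998 (SE 0.31, adjusted p = 0.0473). DESeq2 called it as well and limma-voom did not, and with any of HET 1, HET 3, WT 1 or WT 2 left out edgeR called 0 genes in all. *Lyve1*, made by lymphatic endothelium and by resident macrophages, had a log2 fold change of 1.63 (SE 0.28, adjusted p = 0.0785 by edgeR and 2.66e-06 by DESeq2). *Prox1*, the transcription factor of lymphatic identity that slow fibers also express, was at −0.14 (SE 0.12, adjusted p = 0.878), and *Flt4* itself was at 0.03.

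Among markers of other cell types, some differed between the genotypes. All 15 macrophage markers were above 0 with a median of 1.31, and 7 were called higher (*C1qa*, *C1qb*, *Lyz2*, *Ctss*, *Csf1r*, *Laptm5* and *Adgre1*), with sums of 106 to 148 CPM in HET mice and 57.5 to 63.4 CPM in WT mice. DESeq2 called 11 of them and limma-voom 2. The range ran from *Mrc1* at 0.33 to *Adgre1*, which encodes F4/80, at 1.61 (adjusted p = 0.0452). All 15 fibroblast markers were above 0 with a median of 0.83 and 1 was called, *Pi16* at 1.06 (adjusted p = 0.0452), with sums of 2862 to 4078 CPM in HET mice and 1369 to 2207 CPM in WT mice. DESeq2 called 7 of them and limma-voom 0, so the *Pi16* call was lost there. All 9 tenocyte markers were above 0, from *Scx* at 0.15 to *Chad* at 2.14, with a median of 1.14, sums of 386 to 708 CPM against 124 to 311 CPM, and 0 called by edgeR, 7 at an unadjusted p below 0.05, 1 called by DESeq2 and 0 by limma-voom. As above, 0 of all genes were called with any of HET 1, HET 3, WT 1 or WT 2 left out. Macrophages and fibroblasts also express *Nrp1*, *Nrp2*, *Vegfa* and *Flt1* to some degree, and the part of these cells in the levels of the 10 genes was not tested.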

How the data were processed

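Reads of 6 soleus libraries were counted per gene. The authors aligned single-end reads from a stranded kit with STAR 2.7.3a to GRCm38.p6 and deposited raw counts from featureCounts 2.0.3, made in reverse-stranded mode without reads that map to several places or genes. The authors also deposited a normalized signal, for which each library's counts were divided by its DESeq2 size factor (0.773 to 1.42). Another deposited file holds their own comparison by DESeq2 and was not used. The number of value columns without a sample was 0.

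The members and all lists were chosen with earlier results of these data known. The text names the 10 members, *Mustn1*, called genes of each list or otherwise its highest and lowest gene, and the 3 genes most like *Vegfa* and *Kdr*. *Sema3e*, *Lyve1*, *Prox1*, *Mrc1*, *Pvalb*, *Myh1* and the *Myh7* check were named after their values were seen. Genes were kept by filterByExpr (minimum count 10), scaled with TMM and tested two-sided with edgeR 4.0.16 (robust quasi-likelihood, genotype only) in R 4.3.3, with Benjamini-Hochberg adjustment over 14696 genes at 0.05. DESeq2 1.42.0 and limma 3.58.1 (voom) were alternatives, with other scaling and filters, a block for the replicate number, dispersion without the robust option, and each mouse left out. The SE is the log2 fold change over the square root of F. CPM uses the TMM factors, log2 CPM a prior count of 0.5, and TPM the exon lengths of the count table. Ratios were compared by exact permutation in SciPy 1.17.1. The steps were tested on simulated data. The biological coefficient of variation was 0.143.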

Additional observations from a re-analysis of the deposited data

How the results depend on the processing

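The count of VEGF and junction genes called was 0 in all 14 alternatives, 140 fits in all, with a lowest adjusted p of 0.570. In 3 of these fits the unadjusted p was below 0.05: *Flt1* without WT 1 (−0.29), *Nrp2* without WT 2 (0.31) and *Cdh5* without WT 3 (−0.27). *Vegfa*, *Flt1* and *Cdh5* kept their direction in every alternative, and the other 7 changed sign in some. Library size alone moved the median of all genes from −0.02 to 0.06 and gave 0.063 for *Vegfb*, 0.073 for *Nrp1* and 0.019 for *Pecam1*. *Nrp1* was also 0.0023 with RLE factors, 0.0051 with no filter, 0.0091 with 10 counts in every library, 0.0038 with DESeq2, 0.0048 with voom and 0.00091 with the replicate block, and *Vegfb* was 0.0050 with 10 counts in every library and 0.00018 with DESeq2. With 1 mouse left out, the log2 fold change ranged from −0.25 to 0.14 for *Vegfb*, −0.086 to 0.24 for *Vegfc*, −0.073 to 0.23 for *Kdr*, −0.20 to 0.17 for *Flt4*, −0.075 to 0.11 for *Nrp1*, −0.0055 to 0.31 for *Nrp2* and −0.12 to 0.019 for *Pecam1*.

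Of the 11 ratios, *Flt1*/*Kdr* and *Pecam1*/*Cdh5* kept their sign with any mouse left out, as did *Kdr*, *Nrp1* and *Nrp2* relative to *Pecam1* and *Cdh5*. For *Pecam1*/*Cdh5* the sign could not change, since its genotypes did not overlap. The other differences ranged from −0.17 to 0.084 (*Flt1* relative to *Pecam1* and *Cdh5*), −0.076 to 0.41 (*Flt4* likewise), −0.15 to 0.029 (*Nrp1*/*Kdr*), −0.24 to 0.28 (*Flt4*/*Kdr*), −0.37 to 0.091 (*Vegfb*/*Vegfa*) and −0.20 to 0.12 (*Vegfc*/*Vegfa*). With other endothelial markers as the reference, *Flt1* went from −0.05 to −0.19 (exact p = 0.1), *Kdr* from 0.19 to 0.05 (exact p = 1.0), *Flt4* from 0.21 to 0.07, *Nrp2* from 0.28 to 0.14 and *Nrp1* from 0.12 to −0.020. The order by level per length was the same with deposited normalized counts per kilobase.

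Over all genes, 21 were higher and 1 lower in HET mice. With no filter these were 386 and 18, with DESeq2 204 and 9, with voom 3 and 0, with non-robust dispersion 6 and 0, and with 1 mouse left out 0 to 77 and 0 to 6, with 77 and 6 without WT 3 and 0 without HET 1, HET 3, WT 1 or WT 2. *Mustn1* no longer passed with voom (−0.99, adjusted p = 0.0673), with non-robust dispersion (−0.96, adjusted p = 0.0606) or without HET 1, HET 3, WT 1 or WT 2. As a block, the replicate number gave 114 higher and 2 lower. The deviations of same-numbered mice from their group means had r = 0.20, −0.01 and −0.03 for numbers 1 to 3. Pairs of unlike number had r from −0.14 to 0.13. Number 1 was thus the highest of all pairs and numbers 2 and 3 lay among the unlike pairs. The numbers are not taken as a pairing. The cause of these changes was not tested. With 3 mice a genotype, the fit does not tell apart differences that lie inside a gene's printed interval.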

Other observations

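Other cells and fibers of the muscle were described by marker lists in the same fit, and 0 genes of the 6 lists that follow were called by edgeR, DESeq2 or limma-voom. At an unadjusted p below 0.05 were 1 smooth muscle, 1 Schwann cell and 1 fast fiber gene. Vascular smooth muscle markers had 5 of 8 above 0 with a median of 0.03, and their sum was 276 to 347 CPM in HET mice and 260 to 317 CPM in WT mice. *Myocd*, the coactivator of smooth muscle genes, was at −1.27 (SE 0.39, adjusted p = 0.323) with 8 to 37 reads per library, and *Cnn1* was at 0.60 (SE 0.60). All 6 adipocyte markers were above 0, from *Lep* at 0.54 to *Cfd* at 1.52 (SE 0.72, adjusted p = 0.768), with sums of 73.2 to 229 CPM against 25.1 to 102 CPM. Schwann cell markers ran from *Sox10* at −0.16 to *S100b* at 0.71 (SE 0.29, adjusted p = 0.564), with a median of 0.05. The 4 blood cell genes tested were below 0, with *Alas2* lowest at −0.40 and *Hba-a1* highest at −0.13, and were highest in WT 2, the mouse in which 8 of the 10 VEGF and junction genes were highest.

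Slow fiber genes had a median of −0.08, from *Tnnc1* at −0.17 to *Myh7* at 0.01. All 8 fast fiber genes were below 0, with a median of −0.20, from *Myh4* at −0.91 (SE 1.499, adjusted p = 0.948) to *Atp2a1* at −0.07. In 4 of the 8 all HET mice lay below all WT mice, where 6.02% of all genes did. Among these was *Pvalb*, at −0.85 (SE 0.29, edgeR adjusted p = 0.492). *Myh4*, the fastest myosin, was at 44.7, 2042 and 167 CPM in HET mice and at 1470.3, 1774 and 976 CPM in WT mice, so HET 2 was the highest of all and the other HET mice the lowest. HET 2 was also the highest in *Vegfb*, *Angptl4* and *Atp2a1* (14855 CPM), but the lowest of the 6 mice in *Myh1* (4083 CPM). Its adipocyte markers summed to 229 CPM, against 25.1 to 105 CPM in the other mice. The part of fiber or fat content in *Vegfb* and *Angptl4* was not tested.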
